A study of Homo sapiens with 9 samples.

Results

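The UGT2B enzymes are UDP-glucuronosyltransferases of the endoplasmic reticulum. They join glucuronic acid to steroids, bile acids and drugs, which makes these compounds water-soluble and ready for export. UGT2B15 and UGT2B17 are known in prostate cells for conjugating dihydrotestosterone and its metabolites, a step that ends their action on the androgen receptor, and UGT2B28 is also known to accept androgens. UGDH oxidises UDP-glucose to UDP-glucuronate, the sugar donor that all UGT2B enzymes use. The genes described here are UGT2B7, UGT2B10, UGT2B15, UGT2B17, UGT2B28 and UGDH, chosen by name with every probe set annotated to 1 of them, alone or with another gene. Of these 6 genes, 4 were named by a probe set, and 7 of the 22215 probe sets on the array belonged to them. UGT2B7 and UGT2B10 were not analysed here, since no probe set of the table names them.

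The cells were LNCaP, a human prostate cancer line that depends on androgen. Before treatment every group spent 2 days in serum stripped with charcoal to remove steroids. The 9 arrays fall into 3 groups of 3 biological replicates: 1 nM R1881 together with 1.25 µM celastrol, 1 nM R1881 with DMSO, and the vehicles ethanol and DMSO. R1881 is a synthetic androgen that cells do not metabolise, and celastrol is a plant triterpenoid. The labels give 24 h of treatment, but the titles of the 3 androgen arrays give 6 h, and this conflict touches every comparison with those arrays. The labels do not say how the cultures were separated, so that p-values measure the spread between these samples, which may be technical. A group treated with celastrol alone was not analysed here.

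Values are RMA intensities on the linear scale, with array medians between 72.2 and 80.2. Vehicle replicate 3 stood apart, with a standard deviation of 0.31 on the log2 scale around its group mean over all probe sets, against 0.12 to 0.21 on the other arrays. The treatments could be seen in their known target genes. KLK3, which encodes prostate-specific antigen, averaged 13770.4 ± 312 in androgen and 3107 ± 142 in vehicle (SD, n = 3 each). The androgen targets KLK2, TMPRSS2 and FKBP5 rose by 4.98, 3.15 and 4.49 on the log2 scale with androgen, on the brightest probe set of each. Other probe sets of these genes rose as well, by 2.50 and 4.55 for KLK2 and by 1.78 for TMPRSS2, so that the size depends on the probe set. HMOX1, the heme oxygenase known to respond to oxidants, lay between 4701 and 6510 in androgen plus celastrol and between 51.7 and 80.1 in androgen (n = 3 each). All 7 prostate epithelial markers measured, KLK2, KLK3, FOLH1, HOXB13, KRT8, KRT18 and TMPRSS2, lay above the array median on all 9 arrays. Of 7 hepatocyte markers, listed because the UGT2B genes are best known from liver, none lay above the array median on all arrays. ALB, APOA1, TTR and FGB were below it on all of them. APOB, SERPINA1 and TF were not, and reached 158, 92.4 and 85.9 on their highest vehicle arrays. Of 6 stromal markers none lay above the array median on all arrays either, and COL1A2, COL3A1, DCN and LUM were below it on all arrays. The summed stromal intensity was 267 to 346 in androgen plus celastrol, 339 to 366 in androgen and 418 to 489 in vehicle, and the hepatocyte sum was 241 to 264, 236 to 333 and 264 to 496 in the same order of groups. The stromal sum was thus highest in vehicle, as were UGT2B17 and UGT2B15, but its markers did not move together. VIM averaged 194.5 in vehicle, 135.8 in androgen and 77.7 in androgen plus celastrol. COL1A1 averaged 71.1, 54.1 and 73.0 in the same order. A part of the stromal sum in the UGT2B17 and UGT2B15 difference was not tested.

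The 4 measured genes followed 3 patterns. Androgen strongly lowered the signal of UGT2B17 and of the UGT2B15 probe sets 207392_x_at and 216687_x_at. Adding celastrol to androgen did not bring it back. On the UGT2B15 probe set 217175_at no such fall was seen. How far UGT2B17 adds to the UGT2B15 signal was not tested. Androgen raised UGT2B28, and with celastrol the gene lay below its level in vehicle. UGDH was higher with androgen and higher again with celastrol. In these bulk RNA samples, fewer cells expressing a gene and less RNA per cell cannot be told apart.

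**Figure D1:**
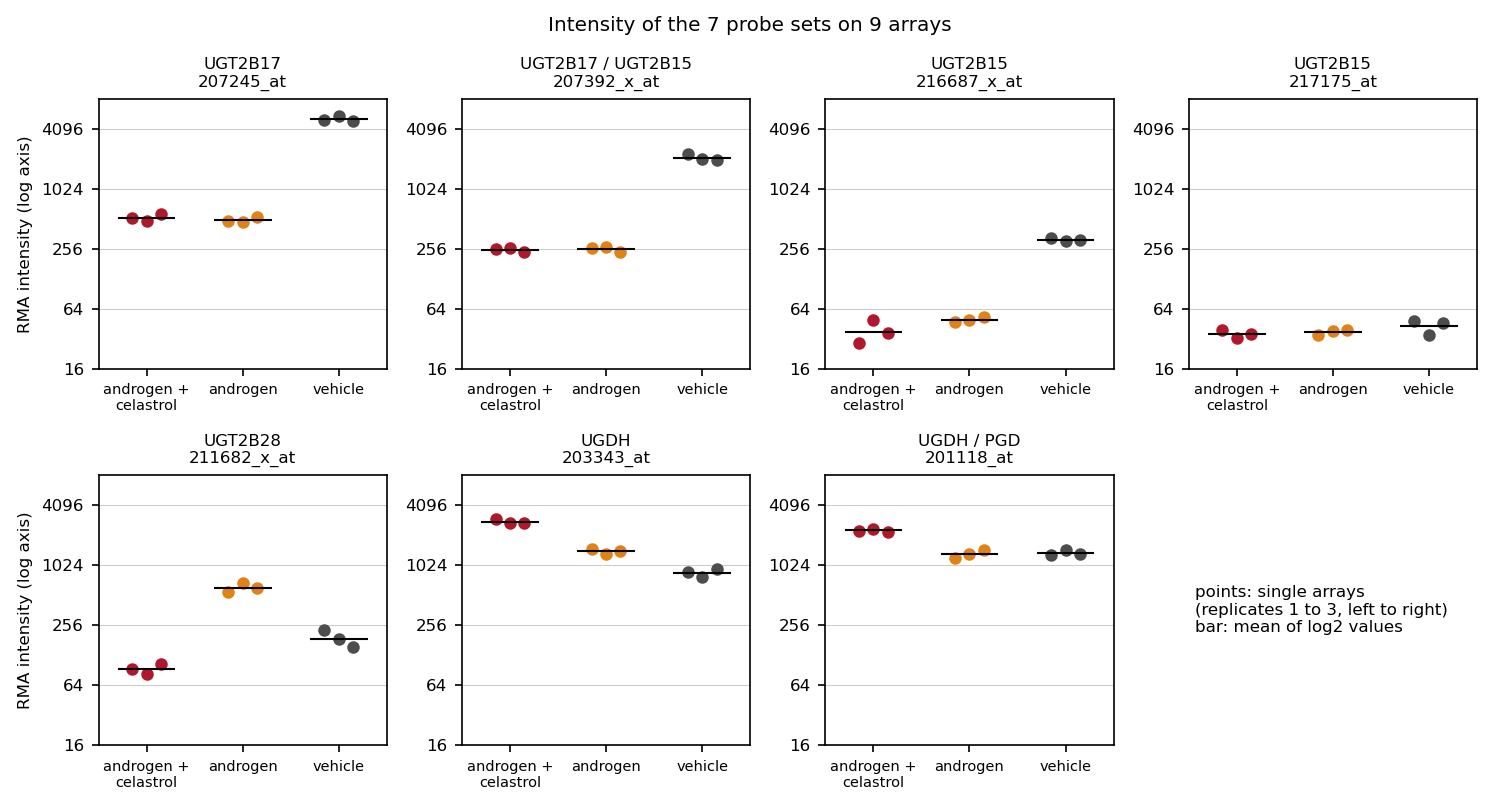
RMA intensity (log axis) of the 7 probe sets on each of the 9 arrays, with androgen plus celastrol at the left, androgen in the middle and vehicle at the right of each panel. Points are single arrays and bars are the mean of the log2 values; UGT2B17 lies between 4877 and 5559 in vehicle and at 568 or less on the 6 arrays with androgen.

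The promoters of UGT2B15 and UGDH, from RefSeq on GRCh38.p14, are shown because the genes moved in opposite directions with androgen and their promoters differ in base composition. Each sequence gives the 250 bases before the start, and capitals mark matches to the androgen receptor half-site AGAACA or to the FOXA motifs TGTTTAC and TATTTAC, on either strand. The UGT2B15 promoter lies at chr4:68670653-68670902 and the UGDH promoter at chr4:39527440-39527689, both on the minus strand.
UGT2B15: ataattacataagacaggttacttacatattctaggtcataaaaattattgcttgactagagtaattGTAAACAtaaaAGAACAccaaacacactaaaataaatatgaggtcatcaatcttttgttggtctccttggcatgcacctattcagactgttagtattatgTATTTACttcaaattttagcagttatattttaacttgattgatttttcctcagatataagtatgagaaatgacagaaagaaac
UGDH: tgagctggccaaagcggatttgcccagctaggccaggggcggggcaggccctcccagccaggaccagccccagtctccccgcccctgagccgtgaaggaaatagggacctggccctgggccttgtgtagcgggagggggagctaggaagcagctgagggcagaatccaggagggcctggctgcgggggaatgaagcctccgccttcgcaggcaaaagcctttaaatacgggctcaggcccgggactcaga

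The UGT2B15 sequence is 28.4% G and C and holds 1 androgen receptor half-site at position -172 from the start and FOXA matches at -183 and -83, none overlapping another. The UGDH sequence is 66.0% G and C and holds neither motif. Among 35116 promoter windows of 300 bases in the RefSeq table, whose median G and C content is 58.7%, 14.8% held the half-site and 5.97% a FOXA match. The 2 motifs are poor in G and C, and the shares were not adjusted for base composition. The full androgen receptor site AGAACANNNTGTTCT, the HNF1 half-site GTTAAT and its inverted repeat GTTAATNATTAAC were searched on both strands as well and had no match in either window, against 0.00285%, 6.88% and 0.0057% of all windows. A match describes letters in the sequence and not a bound site. UGT2B17 and UGT2B28 have no entry in the promoter table used. Of the genes without a probe set, UGT2B10 has 29.6% G and C with FOXA matches at -146 and -82 and no half-site. UGT2B7 has 32.8% G and C and neither motif. A link between these motifs and the direction of change was not tested.

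UGT2B17, read by probe set 207245_at, had intensities of 482, 470.3 and 531 in androgen, against 5011, 5559 and 4877 in vehicle. Every androgen array lay below every vehicle array. The gene fell by 3.38 ± 0.10 on the log2 scale with androgen (log2 fold change ± standard error from limma, n = 3 in both groups, adjusted p = 4.67e-07 after Benjamini-Hochberg adjustment over all 22215 probe sets), so that vehicle was 10.4-fold above androgen. It was the third lowest log2 fold change among all probe sets. In this comparison 10.5% of all probe sets passed the threshold of adjusted p under 0.05, 4.47% of all probe sets passed downwards, and 25.3% had groups that did not overlap. The share that passed was 6.99% without androgen replicate 2.

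UGT2B15 is measured by 3 probe sets, of which 207392_x_at is annotated to UGT2B17 as well. The proteins and transcripts of both genes are known to be close relatives, so that the division of signal between them is uncertain. The shared probe set had 262, 269 and 235 in androgen, against 2272, 2022 and 2015 in vehicle, a log2 fold change of -3.04 ± 0.09 (limma, adjusted p = 5.10e-07). Its target transcript in the annotation is the UGT2B15 one. Probe set 216687_x_at, annotated to UGT2B15 alone, had 46.4, 48.9 and 52.5 in androgen, against 327, 303 and 309 in vehicle, and fell by 2.67 ± 0.17 on the log2 scale (limma, adjusted p = 1.56e-05). On both probe sets the groups did not overlap. In androgen 216687_x_at lay below the median of all probe sets on each array and in vehicle above it, so that the lower level is near the dim end of the scale.

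The third UGT2B15 probe set, 217175_at, lay below the array median on all 9 arrays. It had 34.8, 38.1 and 39.2 in androgen, against 48.2, 34.5 and 46.1 in vehicle, and these ranges overlap. Its log2 fold change was -0.19 (95% confidence interval -0.50 to 0.13, limma, adjusted p = 0.548). The annotation pairs 217175_at and 216687_x_at with the same transcript record, yet the change seen on one was not seen on the other. Of the 3 probe sets naming UGT2B15, 2 therefore fell with androgen and 1 did not pass.

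Celastrol left UGT2B17 and UGT2B15 near their levels in androgen. UGT2B17 had 522, 481 and 568 in androgen plus celastrol, against 482, 470.3 and 531 in androgen, with overlapping ranges. The log2 difference was 0.08 (95% confidence interval -0.14 to 0.30, limma, adjusted p = 0.709). Its upper bound corresponds to 1.23-fold, far short of the 10.4-fold by which vehicle exceeded androgen. The shared probe set 207392_x_at had 254, 258 and 237 in androgen plus celastrol, against 262, 269 and 235 in androgen, a log2 difference of -0.03 (interval -0.24 to 0.18, limma, adjusted p = 0.898).

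The UGT2B15 probe set 216687_x_at had 29.1, 48.9 and 36.8 in androgen plus celastrol, against 46.4, 48.9 and 52.5 in androgen. The log2 difference of -0.40 ± 0.17 did not pass (interval -0.77 to -0.02, limma, adjusted p = 0.190). Replicate 2 of the combined treatment is the highest of its group, and without it the difference was -0.59 with adjusted p = 0.0259. On 217175_at the values were 39.3, 32.6 and 35.2 in androgen plus celastrol, with a log2 difference from androgen of -0.07 (interval -0.38 to 0.25, limma, adjusted p = 0.841). In the comparison of androgen plus celastrol with androgen, 12.6% of all probe sets passed and 32.3% had groups that did not overlap. The share that passed was 8.30%, 7.88% and 8.19% without androgen replicate 1, 2 and 3.

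Against vehicle the combined treatment therefore kept the falls. The log2 fold changes of androgen plus celastrol over vehicle were -3.30 ± 0.10 for UGT2B17 (limma, adjusted p = 2.97e-07), -3.07 ± 0.09 for the shared probe set and -3.06 ± 0.17 for 216687_x_at (limma, adjusted p = 7.33e-06). They were the fourth, the sixth and the seventh lowest of 22215 probe sets in that comparison, in which 19.0% of probe sets passed and 33.5% had groups that did not overlap. For 217175_at the log2 fold change was -0.25 (interval -0.57 to 0.06, limma, adjusted p = 0.251), and -0.40 with adjusted p = 0.0414 without vehicle replicate 2.

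UGT2B28, the relative with the opposite androgen response, was read by 211682_x_at. It had 545, 680.3 and 602 in androgen, against 229.5, 186 and 155 in vehicle, and the groups did not overlap. It rose by 1.69 ± 0.16 on the log2 scale (limma, adjusted p = 0.000159), or 3.23-fold. In that comparison 6.04% of all probe sets passed upwards. Without vehicle replicate 3, the lowest of its group, the log2 fold change was 1.56.

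With celastrol added, UGT2B28 had 92.9, 82.3 and 104 in androgen plus celastrol, against 545, 680.3 and 602 in androgen. It fell by 2.71 ± 0.16 on the log2 scale (limma, adjusted p = 2.87e-05), so that androgen was 6.55-fold above the combined treatment. This was the third lowest log2 fold change of that comparison, in which 5.66% of probe sets passed downwards. The 3 arrays of the combined treatment also lay below the 3 vehicle arrays, 92.9, 82.3 and 104 against 229.5, 186 and 155. The log2 fold change over vehicle was -1.02 ± 0.16 (limma, adjusted p = 0.00197). The order of the levels was thus androgen, vehicle and androgen plus celastrol, with each neighbouring pair apart by more than its spread. UGT2B11, a close relative of UGT2B28, was not analysed here, so that its share in this signal is not known. A share of UGT2B17 or UGT2B15 in the UGT2B28 signal was not tested either.

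UGT2B28 shares its locus with the genes that fell. In the RefSeq order of genes on chromosome 4, UGT2B17 and UGT2B15 are neighbours at one end of the UGT2 cluster, and UGT2B10, UGT2A3, UGT2B7 and UGT2B11 lie between UGT2B15 and UGT2B28. Of these 4, UGT2A3 has a probe set of its own, with a log2 fold change of 0.08 ± 0.08 for androgen over vehicle (limma, adjusted p = 0.707).

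**Figure D2:**
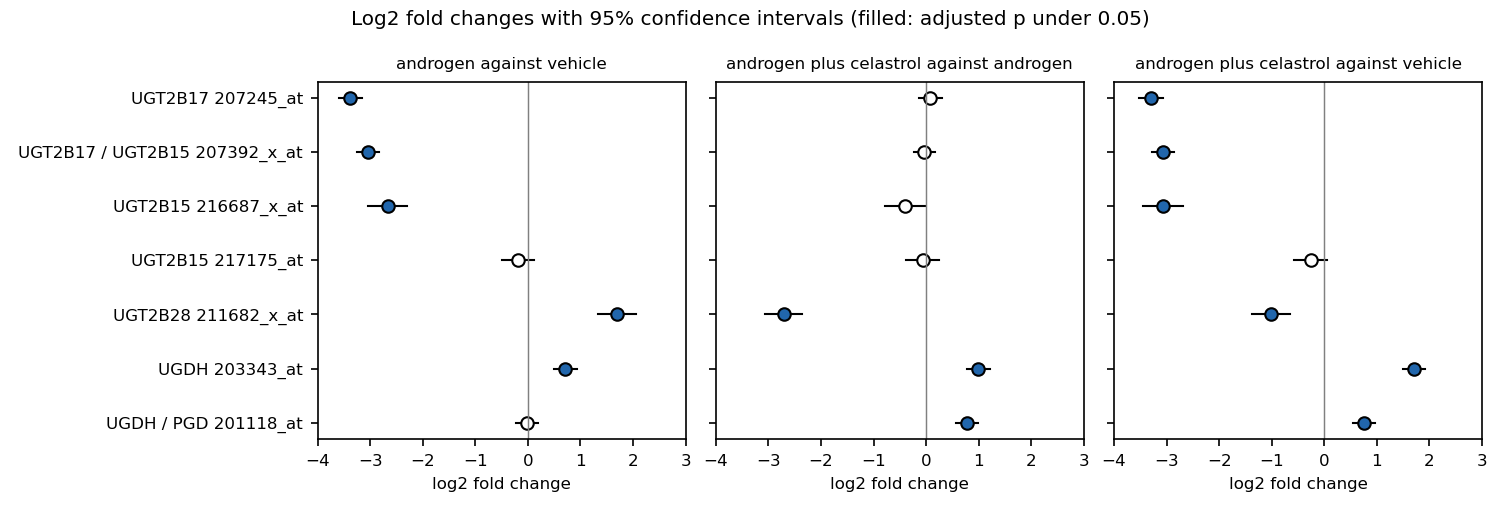
Log2 fold changes (x axis) of the 7 probe sets in the 3 comparisons, with 95% confidence intervals of the limma fit as lines and filled points for adjusted p under 0.05. UGT2B17, the shared UGT2B17 and UGT2B15 probe set and 216687_x_at lie between -3.38 and -2.67 against vehicle, while the interval of 217175_at includes 0; UGT2B17 and the shared probe set lie near 0 for androgen plus celastrol against androgen, where UGT2B28 lies at -2.71 and UGDH at 0.99.

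UGDH, the enzyme that makes the sugar donor, was read by 203343_at. It had 1479, 1334 and 1425 in androgen, against 869, 783 and 941 in vehicle. It rose by 0.71 ± 0.10 on the log2 scale with androgen (limma, adjusted p = 0.00139), or 1.64-fold, and the groups did not overlap. With celastrol it had 2997, 2693 and 2750.2 in androgen plus celastrol, against 1479, 1334 and 1425 in androgen. That rise was 0.99 ± 0.10 on the log2 scale (limma, adjusted p = 0.000284), in a comparison in which 6.91% of all probe sets passed upwards. Over vehicle the combined treatment stood 3.26-fold higher, a log2 fold change of 1.71 ± 0.10 (limma, adjusted p = 8.63e-06). UGDH thus had its lowest level in vehicle, a higher one in androgen and its highest in androgen plus celastrol.

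A second probe set, 201118_at, is annotated to both UGDH and PGD, and its target transcript is that of PGD, an enzyme of the pentose phosphate pathway. It had 1222, 1339.7 and 1469 in androgen, against 1309, 1453 and 1322 in vehicle. The log2 fold change was -0.02 (interval -0.23 to 0.19, limma, adjusted p = 0.937), while the interval of 203343_at was 0.49 to 0.93. With celastrol it had 2269, 2381 and 2236 in androgen plus celastrol and rose by 0.78 ± 0.09 over androgen (log2, limma, adjusted p = 0.000876). Its androgen response was therefore unlike that of the UGDH probe set, and it is not used as a measure of UGDH.

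Counted over the 7 probe sets, 2 rose and 3 fell with androgen against vehicle, and 2 did not pass, where 6.04% of all probe sets passed upwards and 4.47% downwards. For androgen plus celastrol against androgen 2 rose, 1 fell and 4 did not pass, where 6.91% of all probe sets passed upwards and 5.66% downwards. Those 3 also had groups that did not overlap, as had 18.3% of all probe sets upwards and 14.0% downwards. For androgen plus celastrol against vehicle 2 rose, 4 fell and 1 did not pass, where 11.1% of all probe sets passed upwards and 7.94% downwards. The 6 that passed there did not overlap either, as was so for 18.3% of all probe sets upwards and 15.2% downwards. The median log2 fold change of all probe sets lay between -0.04 and 0.02 in the 3 comparisons. The 3 comparisons share arrays, so that their values are given side by side and not as separate evidence. Without vehicle replicate 3, the androgen changes against vehicle were -3.42 for UGT2B17, -2.68 for UGT2B15 on 216687_x_at and 0.78 for UGDH.

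Other glucuronosyltransferases were set beside these genes. Of 17 listed, 7 had a probe set of their own: UGT2B4, UGT2A1, UGT2A3, UGT1A4, UGT1A6, UGT1A10 and UGT8. Their median log2 fold changes were -0.01 for androgen against vehicle and 0.03 for androgen plus celastrol against androgen. In limma 0 of 7 passed in any comparison, and at an unadjusted p under 0.05 the numbers were 0 for androgen against vehicle, 0 for androgen plus celastrol against androgen and 1 for androgen plus celastrol against vehicle. Without vehicle replicate 2, UGT8 passed downwards in the last comparison, with a log2 fold change of -0.58. UGT1A4 averaged 48.6 ± 4.1 in androgen plus celastrol, 47.8 ± 8.0 in androgen and 43.6 ± 5.6 in vehicle (SD, n = 3 each), below the array medians. All 7 lay below the array median on every array, from 20.0 for UGT2A3 to 56.9 for UGT1A4. A change in such dim genes may go unseen, so that their lack of calls does not show a lack of response.

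The supply of UDP-glucuronate was followed through 13 measured genes for the making and use of UDP-sugars. With androgen 3 rose and none fell, and with celastrol added to androgen 2 rose and none fell. Of all probe sets, 6.04% rose and 4.47% fell with androgen, and 6.91% rose and 5.66% fell with celastrol added. The medians of the list were 0.05 and 0.17 on the log2 scale. The androgen risers were the hexokinases HK1 (log2 fold change 0.74 ± 0.09) and HK2 (1.25 ± 0.15), which start glucose use, and SLC35B1 (0.43 ± 0.08), a nucleotide transporter of the endoplasmic reticulum. A second HK2 probe set stood at 0.01 and did not pass. The celastrol risers were PGM1 (0.66 ± 0.08), which makes glucose-1-phosphate, and UGP2 (0.40 ± 0.07), which turns it into UDP-glucose, the substrate of UGDH. For UGP2, named after its values were seen, the adjusted p of limma was 0.00818 and for PGM1 it was 0.000688. GUSB, the glucuronidase that removes glucuronic acid again, stood at -0.28 ± 0.11 for androgen and did not pass (limma, adjusted p = 0.182), but passed at -0.38 without vehicle replicate 3 (adjusted p = 0.0453). CHSY1, a chondroitin synthase that uses UDP-glucuronate, stood at 0.46 ± 0.13 for androgen (limma, adjusted p = 0.0701, and adjusted p = 0.0359 with the replicate number as a block). It also passed with the array median subtracted, with dim probe sets left out, with an intensity trend and without vehicle replicate 1, with adjusted p of 0.0335 to 0.0440.

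Among 36 measured genes that make or remove androgens, 2 rose and 2 fell with androgen, and 4 rose and 3 fell with celastrol added to androgen. The shares over all probe sets were 6.04% up and 4.47% down with androgen, and 6.91% up and 5.66% down with celastrol added. Their median log2 fold changes were 0.00 and 0.07, against -0.04 and 0.02 for all probe sets. HSD17B11, a steroid dehydrogenase, rose by 1.32 ± 0.10 with androgen (log2, limma, adjusted p = 4.21e-05). HSD17B4 and HSD17B10, dehydrogenases of the peroxisome and the mitochondrion, stood at 0.28 ± 0.09 and 0.09 ± 0.09 with androgen and did not pass. The androgen rises were 4 with each array's median subtracted, with quantile normalization, with dim probe sets left out or with an intensity trend. HSD17B4 passed with the median subtracted, with dim probe sets left out and with the trend (adjusted p of 0.0218, 0.0485 and 0.0154). AKR1C2, which reduces dihydrotestosterone to a substrate of the UGT2B enzymes, averaged 6056 ± 972 in androgen plus celastrol and 49.2 ± 7.5 in androgen (SD, n = 3 each). AKR1C1 and AKR1C2 are near-identical and uncertain as separate genes, and a further AKR1C2 probe set, 217626_at, stood at a log2 difference of 0.30 and did not pass. AKR1C3 rose by 1.79 ± 0.35 on the log2 scale with celastrol (limma, adjusted p = 0.0107, and adjusted p = 0.0508 without androgen replicate 2). The androgen falls, AKR1C1 and AKR1C2, were 0 without vehicle replicate 2, androgen replicate 1 or androgen replicate 3. They were 1 without vehicle replicate 1, androgen replicate 2 or androgen plus celastrol replicate 1 and under 3 other settings, named in the closing section. HSD17B12 was the other gene that rose with celastrol and CYB5A the other that rose with androgen. The celastrol falls were CYB5A, STS and SULT2B1, all 4 named after their values were seen, and 1 of them was left without androgen replicate 1, while 5 genes fell with quantile normalization or an intensity trend. STS also lost its call without androgen replicate 3 or androgen plus celastrol replicate 1 or 2, with adjusted p of 0.0707 to 0.0876.

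Among 9 measured regulators known to act on UGT2B genes, none rose and 1 fell with androgen, and 2 rose and none fell with celastrol. The shares over all probe sets were 6.04% up and 4.47% down with androgen, and 6.91% up and 5.66% down with celastrol. The medians of the list were -0.01 and 0.08 on the log2 scale. PBX2 stood at 0.29 ± 0.22 with androgen and did not pass. FOXA1, a pioneer factor known to drive UGT2B15 and UGT2B17 in prostate cells, averaged 397 ± 3.3 in androgen plus celastrol, 398 ± 8.6 in androgen and 445 ± 40.7 in vehicle (SD, n = 3 each), and did not pass in any of the 3 comparisons. NFE2L2, the oxidant response factor, rose by 0.53 ± 0.08 with celastrol (log2, limma, adjusted p = 0.00318). CEBPA fell by 0.46 on the log2 scale with androgen (limma, adjusted p = 0.0397) and rose by 0.48 with celastrol (adjusted p = 0.0303). With the replicate number as a block the CEBPA fall had adjusted p = 0.0502, and when any 1 of vehicle replicates 1 and 2, the 3 androgen arrays and androgen plus celastrol replicate 3 was left out it had 0.0671 to 0.127. Its rise with celastrol had 0.0530 to 0.0991 without any 1 of the 3 androgen arrays, vehicle replicate 1 and androgen plus celastrol replicates 2 and 3. The androgen receptor itself was not analysed here.

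Of 7 measured export pumps known to carry conjugates, 2 rose and 1 fell with androgen, and 1 fell with celastrol added. Over all probe sets 6.04% rose and 4.47% fell with androgen, and 5.66% fell with celastrol added. The medians were -0.16 and -0.13 on the log2 scale, and ABCC3 and ABCC5, at -0.06 ± 0.12 and -0.46 ± 0.18 with androgen, did not pass. With quantile normalization ABCC5 passed at -0.53 (limma, adjusted p = 0.0216), and 2 pumps fell with androgen. ABCC4, an exporter of conjugated steroids, rose by 1.62 ± 0.08 with androgen (log2, limma, adjusted p = 4.59e-06) and fell by 0.62 with celastrol (adjusted p = 0.00125). ABCC1 rose by 1.26 ± 0.09 with androgen, and ABCG2, an efflux pump of broad range, fell by 1.33 ± 0.23 (limma, adjusted p = 0.00565). ABCG2 was dim, at 29.5 to 40.1 in androgen, below the array medians, and at 66.1 to 104 in vehicle.

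**Figure D3:**
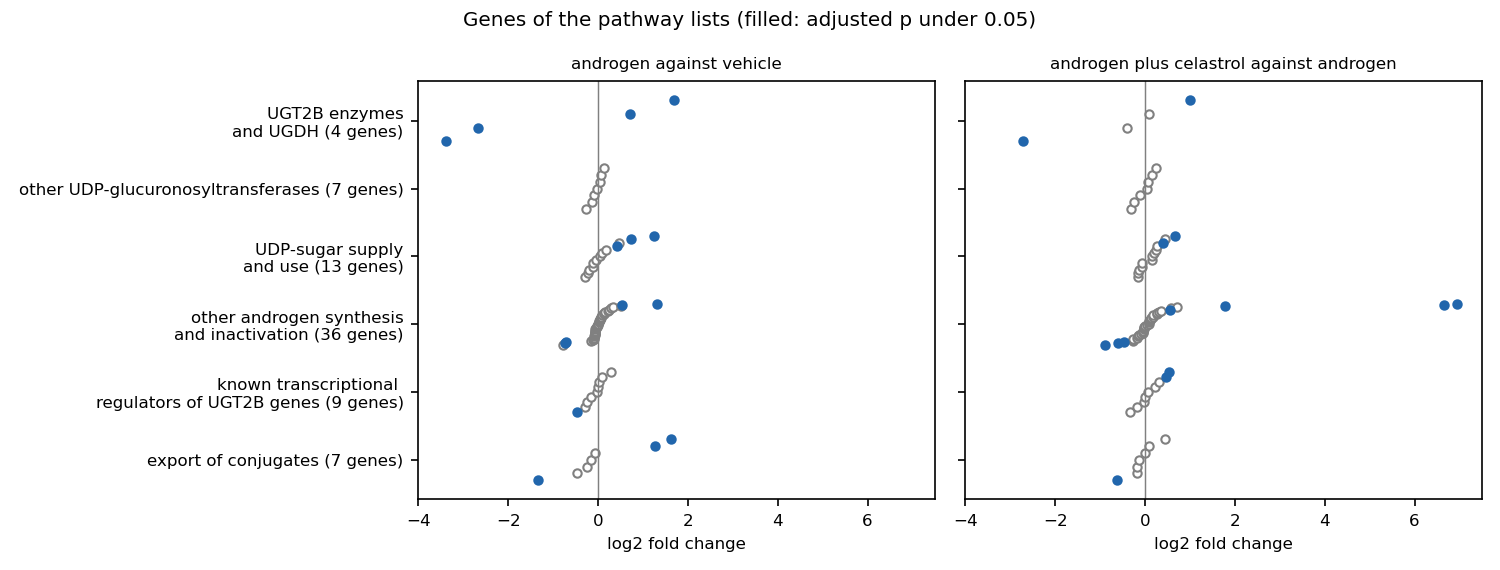
Log2 fold changes (x axis) of each gene of 6 lists (rows), for androgen against vehicle at the left and androgen plus celastrol against androgen at the right. Filled points have adjusted p under 0.05; among the 7 other UDP-glucuronosyltransferases none is filled, and AKR1C1 and AKR1C2 are the points beyond 6 at the right.

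The genes most like each of the 4 over the 9 arrays were found by Pearson correlation of log2 intensity among 1218 probe sets of 1 gene whose group means spanned at least 1 on the log2 scale. The 9 arrays are 3 groups, so that the correlations mainly reflect the group means and are given as descriptions. UGT2B17 was closest to the Wnt receptor FZD3 (r = 0.997), the Mediator kinase CDK8 (r = 0.997) and the ubiquitin ligase LTN1 (r = 0.994). UGT2B15 was closest to CCNG2 (r = 0.989), GRAMD1C (r = 0.988) and the collagen COL5A2 (r = 0.988). UGT2B28 was closest to MTARC1 (r = 0.979), a reductase of the mitochondrial outer membrane, the bicarbonate cotransporter SLC4A4 (r = 0.972) and NAAA (r = 0.970). UGDH was closest to HSPA13 (r = 0.995), a chaperone of the endoplasmic reticulum, the UDP-galactose transporter SLC35A2 (r = 0.994) and TBL2 (r = 0.994).

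These genes differ from the UGT2B genes in the size of their change. FZD3 fell by 2.48 on the log2 scale with androgen, CDK8 fell by 1.74 and LTN1 fell by 1.86, each less than the fall of UGT2B17. SLC4A4 rose by 0.80 ± 0.12 with androgen and fell by 1.67 with celastrol, against 1.69 and -2.71 for UGT2B28. HSPA13 rose by 1.34 ± 0.13 with androgen and by 1.48 ± 0.13 with celastrol, more than UGDH in both. The pattern of UGT2B28, above vehicle with androgen and below it with celastrol, was shared by MTARC1, with log2 changes of 0.60 ± 0.09 and -0.51 ± 0.09 over vehicle, and by SLC4A4.

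**Figure D4:**
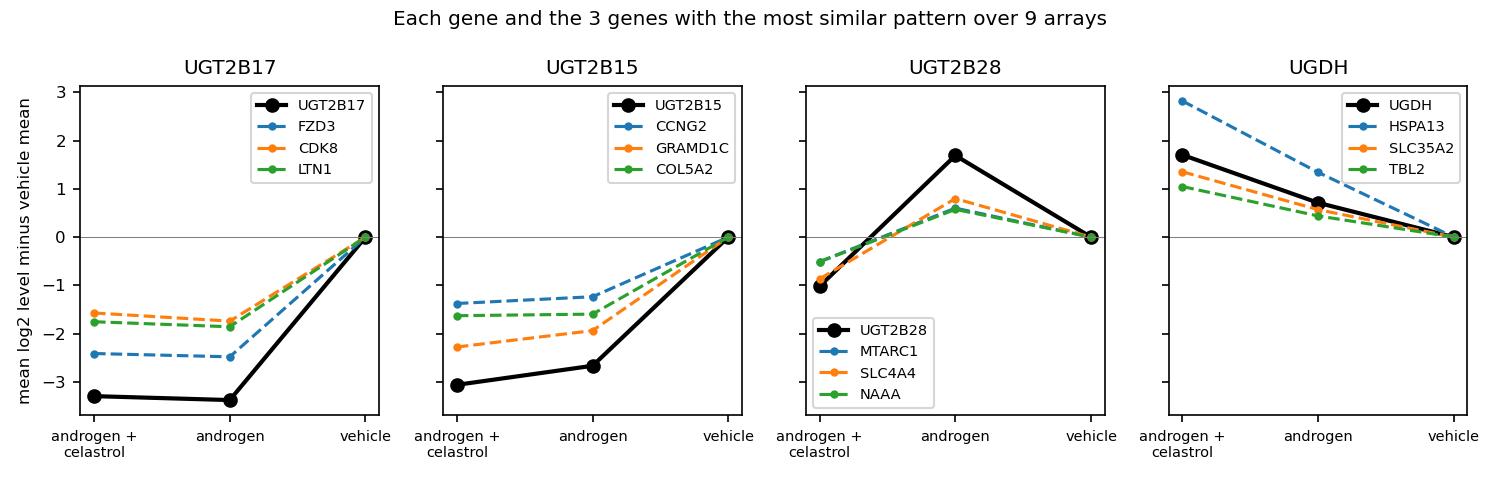
Mean log2 level minus the vehicle mean (y axis) in androgen plus celastrol, androgen and vehicle, for UGT2B17, UGT2B15, UGT2B28 and UGDH (black) and the 3 genes most like each (dashed). UGT2B28 and its 3 companions lie above 0 in androgen and below 0 in androgen plus celastrol.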

How the data were processed

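RNA of 9 LNCaP cultures was hybridised to Affymetrix arrays. The authors deposited linear RMA intensities, per the submitters' processing notes; no RMA version or chip definition was found there. RMA is meant to bring arrays to a common distribution, a step that takes out differences in total RNA. The deposited arrays still differed, with an upper quartile of 332 on vehicle replicate 3 and of 377 to 409 on the others. Log2 was taken with a pseudocount of 0. The annotation table names 1 gene for 19724 of the 22215 probe sets, several for 568 and none for 1923; IDs of 19707 were found in the RefSeq table.

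All 9 arrays were fitted together by limma 3.58.1 in R 4.3.3 (lmFit, eBayes, 6 residual and 2.8 prior degrees of freedom), with p-values adjusted by Benjamini and Hochberg over all probe sets and 0.05 as threshold. In the gene lists a gene was represented by its 1-gene probe set with the highest mean. Precision is limited by the number of arrays, with a typical (median) standard error of 0.13 per log2 fold change. The fit was tested on simulated data. For androgen against vehicle 5 of 50 simulated log2 changes of 0.5 and 36 of 50 of 1.0 were called. For androgen plus celastrol against androgen these were 6 and 35 of 50. Of 22015 unchanged probe sets, 7 and 3 were called. The simulation left 22015 of 22215 probe sets unchanged, while 10.5% and 12.6% of probe sets passed in these 2 comparisons of the data. The adjustment depends on that share, so that the simulated rates of calls do not carry over. Real changes near 0.5 can miss the threshold, but how often was not tested.

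The 6 genes, the lists and the tests were chosen with earlier results of these data known. The text names every probe set of the 6 genes, up to 4 genes past the threshold and up to 2 others per list, the 3 genes most like each measured gene and, where stated, genes chosen after their values were seen. A planned comparison of protein sequences was not made.

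The labels number replicates 1 to 3 in each group. Deviations from the group means correlated at 0.39, 0.37 and 0.63 between vehicle and androgen arrays of the same number, so that these may be paired. Vehicle replicate 2 with androgen replicate 1, at 0.41, and vehicle replicate 1 with androgen replicate 2, at 0.30, were similar. Pairs of replicate 3 with another number lay between -0.57 and -0.40. The values thus set replicate 3 apart but do not show how replicates 1 and 2 pair. Same-number arrays correlated at -0.09, 0.22 and -0.16 between androgen plus celastrol and androgen. Between androgen plus celastrol and vehicle they correlated at -0.26, 0.12 and -0.27, with no clear sign of pairing by number in either. Printed values come from the fit without the replicate term, and those with it are given where they change a call.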

Additional observations from a re-analysis of the deposited data

How the results depend on the processing

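The results were recomputed with each array's median subtracted, quantile normalization, a pseudocount of 16, dim probe sets left out, an intensity trend, only the compared groups, the replicate block, 1 probe set per gene, and each array left out in turn. Of 345 values for the 7 probe sets, 343 kept their direction or lack of a call and their side of the threshold; the other 2, both calls gained without 1 array, stand beside UGT2B15 in the report. With the replicate block 5, 3 and 6 of the 7 probe sets were called for androgen against vehicle, androgen plus celastrol against androgen and androgen plus celastrol against vehicle, as without it, and 2023, 2397 and 4074 of all probe sets, against 2333, 2792 and 4222 without it. Among the genes the report names, the block changed the calls of CEBPA and CHSY1 for androgen against vehicle and no other. With single arrays left out, all probe sets called numbered 1552 to 2631 for androgen against vehicle (1552 without androgen replicate 2), 1750 to 3919 for androgen plus celastrol against androgen (1844, 1750 and 1820 without androgen replicate 1, 2 and 3) and 3326 to 4365 for androgen plus celastrol against vehicle. Of the 7 probe sets, 5 to 5, 3 to 4 and 6 to 7 were called. Of 2376 values for other genes, 60 lost and 45 gained a call and none reversed, and 59 of 816 counts by direction moved by over 1.5 times; the cause was not tested. The androgen falls among the androgen synthesis and inactivation genes were 1 with the array median subtracted, quantile normalization or a pseudocount of 16. No detection calls were used, so that dim values such as those of UGT2B15 have no known floor.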
